A study of Mus musculus with 4 samples.

Results

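The HOX cluster genes were examined in mouse lung tumours driven by mutant K-Ras, with and without floxed Mll4. They were taken as every gene whose symbol is Hoxa, Hoxb, Hoxc or Hoxd followed by a number, which gave 39 of the 24391 genes counted: 11 in the HoxA cluster, 10 in HoxB, 9 in HoxC and 9 in HoxD. RNA had been sequenced from 4 tumour samples. The K-Ras group (n = 2) carried the K-Ras LSL-G12D allele, in which a stop cassette between loxP sites blocks the mutant gene before Cre acts. The K-Ras Mll4-/- group (n = 2) carried the same allele together with Mll4 fl/fl. Cells bearing the leukocyte antigen CD45 had been removed from all 4 samples with magnetic beads before RNA extraction. The source and timing of Cre, the age and strain of the mice, and whether the 2 samples of a group came from separate mice are not given in the sources used here, so p-values measure the spread between these samples only.

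HOX genes encode homeodomain transcription factors that set position along the body axis. In mammals they lie in 4 clusters on different chromosomes. Genes at the 3' end of a cluster carry low numbers and are used anteriorly and early, those at the 5' end carry high numbers and are used posteriorly and late, and genes of the same number in different clusters are paralogues. In the lung, anterior and middle HOX genes are known mainly from the mesenchyme, and Hoxa5 is required for normal airway and lung development. Methyltransferases of the Mll family activate HOX clusters: Kmt2a (Mll1) and Kmt2b (Mll2) carry a CXXC domain that binds unmethylated CpG, whereas Kmt2d, the present name of Mll4, acts mainly at enhancers.

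Between 26683033 and 36677987 reads were assigned to genes in each sample. Expression is given as CPM, the read count scaled to library size with TMM factors, which correct for differences in library composition. Counts below 3 reads, or 0.0830 to 0.114 CPM depending on the sample, were not taken as showing a transcript, and this floor covers counting error only. Kmt2d was at 395 and 526 CPM in the K-Ras samples and at 367 and 317 CPM in the K-Ras Mll4-/- samples, a difference of -0.43 on the log2 scale (SE 0.21) with an edgeR quasi-likelihood adjusted p = 0.302. A count over the whole gene cannot tell whether floxed exons were lost. The summed CPM of 10 alveolar type 2 markers, from 19699.5 to 32562, was high in all 4 samples. Ptprc, the gene of CD45, was at 274 and 143 CPM in the K-Ras samples and at 269 and 171 CPM in the K-Ras Mll4-/- samples. The samples were therefore not free of its RNA after the removal of CD45 cells.

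Above a level of 1 CPM, HOX expression in K-Ras tumours was found in the 3' and middle parts of HoxA and HoxB, while a few HoxD genes had reads below that level. At least 1 CPM in both K-Ras samples was reached by 9 of the 39 genes, namely Hoxa2, Hoxa3, Hoxa4, Hoxa5, Hoxa7, Hoxb2, Hoxb3, Hoxb4 and Hoxb5. HoxA supplied 69.1% and 63.6% of all HOX reads in the K-Ras samples, and HoxB 29.7% and 34.8%. Paralogue group 5 alone made up 36.3% and 36.6% of the summed HOX CPM.

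The 5' members were close to empty. The 16 genes of paralogue groups 9 to 13 had at most 7 reads in any sample, and the highest of these counts belonged to Hoxd9. Hoxa13, Hoxb13, Hoxc13 and Hoxd13, regulators of distal limb and urogenital structures, had between 0 and 3 reads each. In HoxC, all 9 genes had at most 3 reads in a sample, and the cluster summed to 2 and 0 reads in the K-Ras samples and to 2 and 4 in the K-Ras Mll4-/- samples. Over all clusters, 10 genes had 0 reads in all 4 samples. In HoxD, Hoxd4 had 16 and 19 reads and Hoxd8 10 and 9 reads in the K-Ras samples, while Hoxd1, Hoxd11 and Hoxd12 had 0 reads in every sample. Hoxb1, a hindbrain gene, also had 0 reads in every sample although its neighbour Hoxb2 was expressed.

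**Figure D1:**
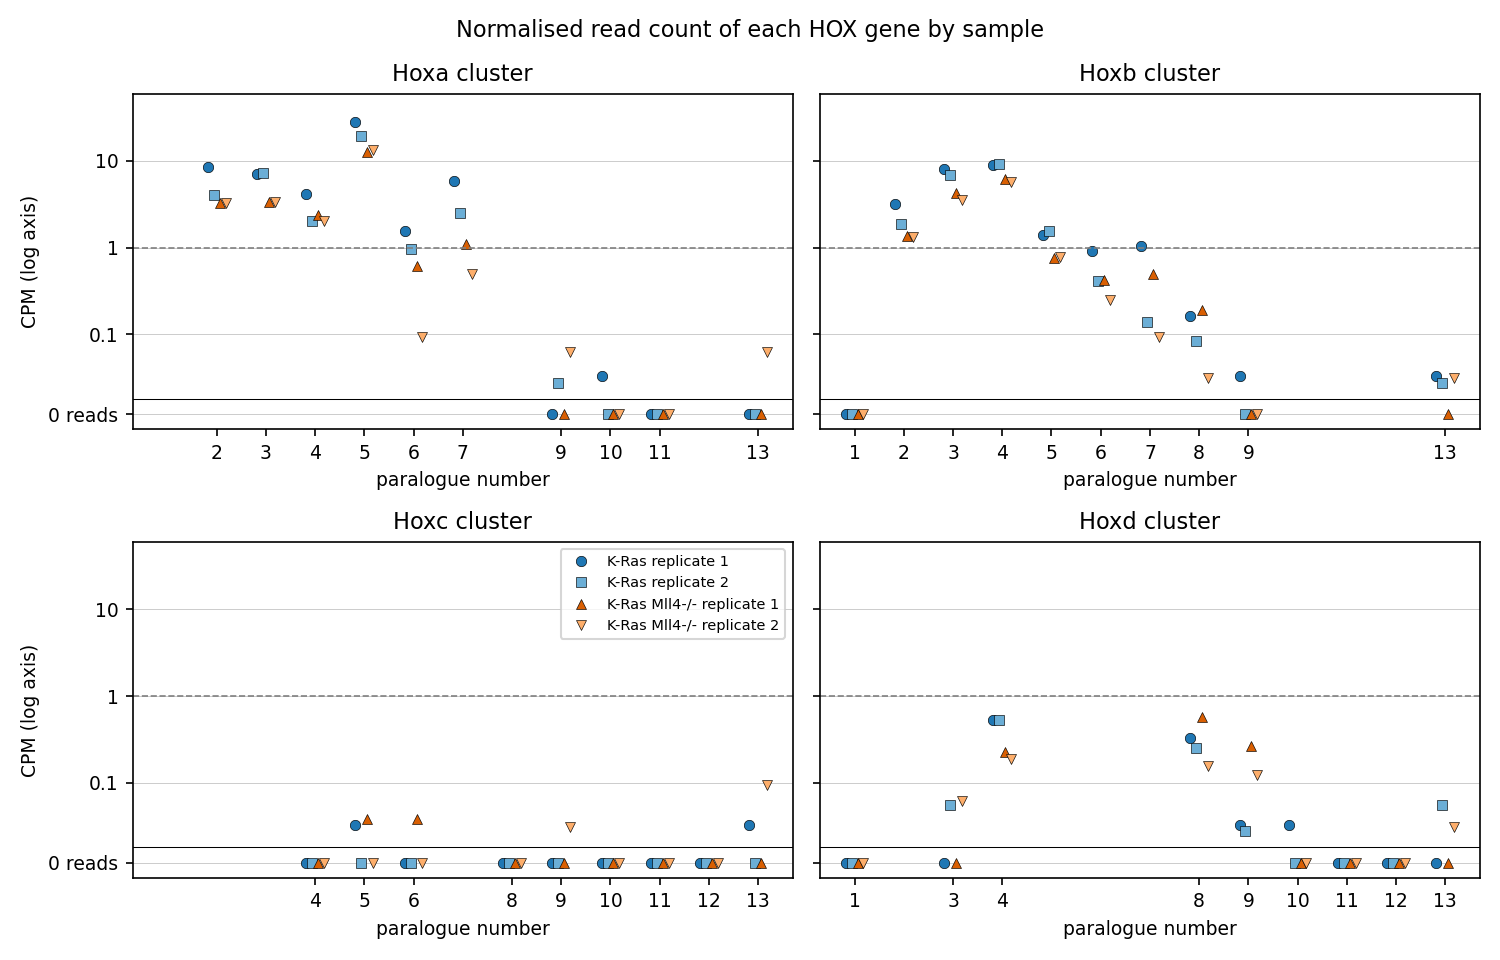
CPM of 38 HOX genes (log axis, with 0 reads drawn below the line) against paralogue number in the 4 clusters, with 1 point per sample. The dashed line marks 1 CPM, which 9 genes passed in both K-Ras samples and 7 in both K-Ras Mll4-/- samples, all in HoxA and HoxB with numbers from 2 to 7.

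The edge of expression in HoxA lay between adjacent genes. Hoxa7 had 179 and 91 reads in the K-Ras samples, whereas Hoxa9, the next gene towards the 5' end, had 0 and 1. Sequences upstream of these genes are shown to set the edge beside Hoxa5 and Hoxb4, the members with the highest mean CPM in their clusters. Each line gives the 250 bases before the start of the gene, from RefSeq on GRCm38.p6, in the 5' to 3' direction of the gene, with CpG dinucleotides in capitals. The windows are chr6:52204588-52204837 on the minus strand for Hoxa5, chr6:52218574-52218823 on the minus strand for Hoxa7, chr6:52227371-52227620 on the minus strand for Hoxa9 and chr11:96318017-96318266 on the plus strand for Hoxb4.
Hoxa5: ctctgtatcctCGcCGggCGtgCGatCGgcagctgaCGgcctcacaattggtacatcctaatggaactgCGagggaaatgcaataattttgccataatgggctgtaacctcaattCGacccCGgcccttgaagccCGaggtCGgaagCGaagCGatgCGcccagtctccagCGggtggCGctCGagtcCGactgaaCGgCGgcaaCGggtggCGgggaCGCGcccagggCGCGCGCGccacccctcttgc
Hoxa7: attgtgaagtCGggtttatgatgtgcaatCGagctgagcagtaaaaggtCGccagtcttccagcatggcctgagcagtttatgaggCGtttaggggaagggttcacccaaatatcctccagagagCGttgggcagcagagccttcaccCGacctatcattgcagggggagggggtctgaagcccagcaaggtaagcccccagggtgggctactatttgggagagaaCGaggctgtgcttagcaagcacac
Hoxa9: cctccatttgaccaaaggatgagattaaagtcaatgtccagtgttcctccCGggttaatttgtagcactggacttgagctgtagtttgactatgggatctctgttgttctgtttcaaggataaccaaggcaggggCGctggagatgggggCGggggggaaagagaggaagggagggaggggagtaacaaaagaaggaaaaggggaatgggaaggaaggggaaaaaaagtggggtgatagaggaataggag
Hoxb4: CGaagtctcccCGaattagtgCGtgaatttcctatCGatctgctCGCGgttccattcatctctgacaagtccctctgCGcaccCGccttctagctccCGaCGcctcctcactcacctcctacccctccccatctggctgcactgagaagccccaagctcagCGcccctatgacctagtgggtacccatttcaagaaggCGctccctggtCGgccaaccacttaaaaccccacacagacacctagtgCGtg

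The Hoxa5 window held 28 CpG, the Hoxb4 window 14, the Hoxa7 window 7 and the Hoxa9 window 3. RefSeq gave 24 such windows for 22 of the 39 HOX genes. Their median was 12.5 CpG, against 6 over all 32851 promoter windows of the same length, and their median GC content was 58.6% against 52.4%. Within this partial set, windows of genes with enough reads to be tested were not richer in CpG. The 8 of these genes had a median of 10.5 CpG, the 16 of the remaining genes 12.5, and the richest was that of Hoxa13, with 35. Hoxa4, Hoxb2, Hoxb3 and Hoxb5, all past 1 CPM in K-Ras, had no window. In the 4 windows printed above, the CpG number fell in the order of the mean K-Ras CPM. Whether CpG content goes with expression was not tested. The TATA motif TATAAA, searched on both strands, was in 4 of the 24 windows (16.7%, against 12.4% of all promoters). TGATNNAT, a motif bound by PBX with HOX proteins, was in 4 (16.7% against 7.68%), including that of Hoxa2. TGACAG, a MEIS motif, was in 2 (8.33% against 15.9%), those of Hoxa2 and Hoxa3. These matches describe letters in the window and not binding.

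Levels of different genes were compared per kilobase of the longest protein-coding transcript in GENCODE M21. Hoxa5 stood first in K-Ras tumours at 12.6 ± 3.18 CPM per kilobase (SD, n = 2), with 14.9 and 10.4 in the single samples. Its lower value was above every other HOX gene. Hoxb4, known from blood stem cells, followed at 3.54 ± 0.0125, and Hoxa2, a regulator of hindbrain and neural crest, at 3.53 ± 1.78. Their order cannot be told, since the Hoxa2 samples, at 4.79 and 2.28, lie on either side of Hoxb4. Hoxa3, which is needed for thymus and parathyroid, came next at 2.77 ± 0.00897 CPM per kilobase and Hoxb3 at 2.35 ± 0.297. Hoxa2, and Hoxa7 at 2.91 and 1.25, each had samples on either side of Hoxa3. The samples of Hoxa3 lay above those of Hoxb3, and from Hoxb3 through Hoxa7, Hoxa4 and Hoxb2 to Hoxa6 each gene overlapped the next in the order. All annotated exons of Hoxa3 cover 6014 bases, against 2591 in the transcript used, and those of Hoxb3 4251 against 3190. The order of Hoxa3 and Hoxb3 therefore depends on the length chosen. Hoxb5, a paralogue of Hoxa5, was at 0.780 ± 0.0535 CPM per kilobase, and Hoxc5, the remaining paralogue, had at most 1 read in a sample.

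**Figure D2:**
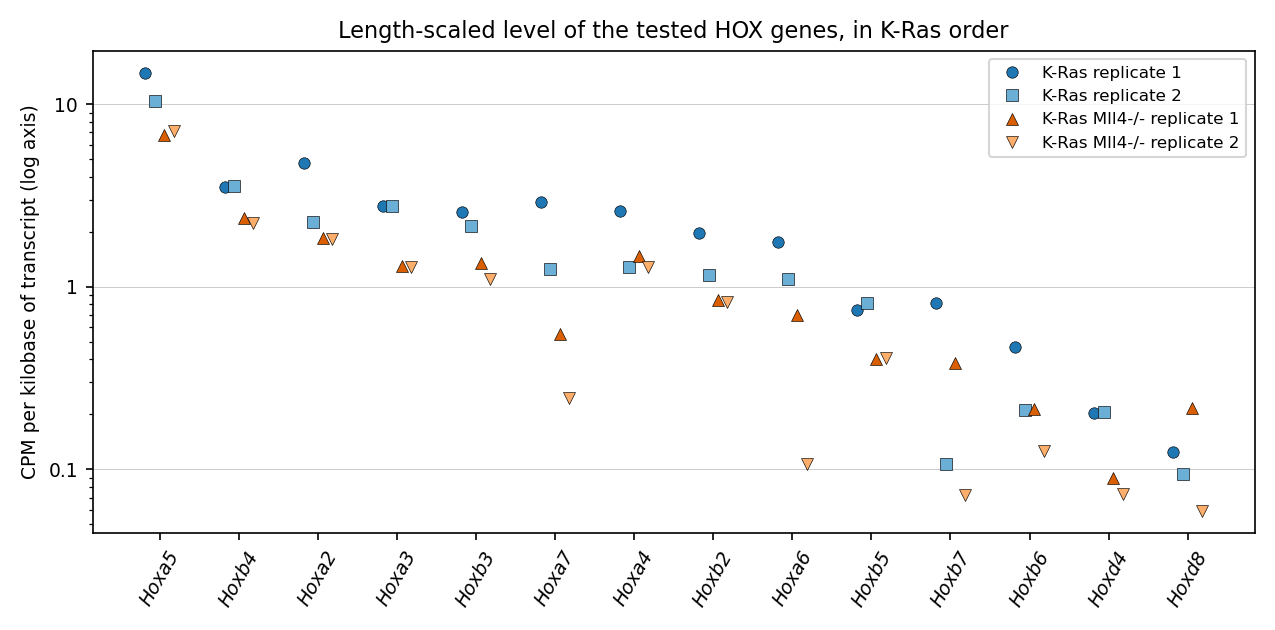
CPM per kilobase of transcript (log axis) of 14 HOX genes with enough reads to be tested, 1 point per sample, ordered by the K-Ras mean. Hoxa5 leads in all 4 samples, at 14.9 and 10.4 in K-Ras and at 6.82 and 7.14 in K-Ras Mll4-/-.

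In K-Ras Mll4-/- tumours the same clusters were expressed at a lower level. Summed over the 39 genes, HOX expression was 81.0 and 57.5 CPM in the K-Ras samples and 38.7 and 35.5 CPM in the K-Ras Mll4-/- samples, so the mean was 53.6% of the K-Ras mean and the groups did not overlap. The HoxA sum was 50.7% and the HoxB sum 57.7% of the K-Ras mean, again without overlap, and the HoxD sum, at 88.8%, overlapped. HoxA supplied 61.8% and 64.9% of HOX reads in the K-Ras Mll4-/- samples, and paralogue group 5 made up 35.1% and 39.98% of the summed CPM. Group 7, mostly Hoxa7, made up 8.52% and 4.62% in the K-Ras samples and 4.13% and 1.66% in the K-Ras Mll4-/- samples, and group 4 made up 17.0% and 20.3% against 22.5% and 22.5%. For groups 4 and 7 the shares did not overlap between the sample groups. Nor did they for group 9, which had 2 and 2 reads in K-Ras and 7 and 7 in K-Ras Mll4-/-. In CPM, 28.5% of all tested genes were lower and 29.9% higher without overlap. The shares of the paralogue groups were not tested. At least 1 CPM in both samples was reached by 7 genes. Hoxa7 and Hoxb5 were the 2 genes past this level in K-Ras and not in K-Ras Mll4-/-.

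No HOX gene passed the edgeR quasi-likelihood test for a difference. Of the 39, 15 had enough reads to be tested among 16001 genes, and 0 were called at an adjusted p under 0.05 (edgeR quasi-likelihood test, adjusted p from 0.156 to 0.845), where 0.0375% of all tested genes were called in either direction. At an unadjusted p under 0.05, 6 of the 15 were lower in K-Ras Mll4-/- tumours, against 10.4% of all tested genes, and 0 were higher, against 11.4%. Among the 9 HOX genes that reached the filter level in each group by itself, the count lower was 5. DESeq2 called 2 of the 10 HOX genes for which it gave an adjusted p, both lower (5.18% of all genes). In either direction DESeq2 called 10.4% of all genes. The edgeR likelihood ratio test called 2 of 15, both lower (4.54% of all genes, and 9.39% in either direction). The 2 genes were Hoxa3 and Hoxa7 with both tools. With limma-voom 0 were called (0%). With 2 samples in each group the smallest two-sided p of an exact permutation test is 0.333.

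The log2 fold change was negative for 14 of the 15 tested genes, against 51.2% of all tested genes. Both K-Ras Mll4-/- samples lay below both K-Ras samples for 10 of the 15 (28.5% of all tested genes), and above them for 0 (29.9%). A log2 fold change of -1 or less was found for 5 of the 15 (8.55%). Of these 5, Hoxa3 and Hoxa7 reached the filter level in each group by itself, and Hoxa6, Hoxb7 and Hoxd4 did not. These counts are a description. Hoxa6, Hoxb6 and Hoxd4 reached the filter level in both K-Ras samples but not in both K-Ras Mll4-/- samples. Hoxa6 and Hoxb6 reached it in K-Ras Mll4-/- replicate 1 as well. A further 3 genes, Hoxb7 and Hoxd8 among them, entered the test through a mixture of samples. The other 9 reached the filter level in each group by itself. Among those 9 the median log2 fold change was -0.94, with a range from -2.39 to -0.49, against a median of -0.01 over all tested genes. Of the 9, 8 had groups that did not overlap. K-Ras replicate 1 set much of the size: without it the median over the 15 genes was -0.57 in place of -0.94, and 11 of 15 were negative.

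**Figure D3:**
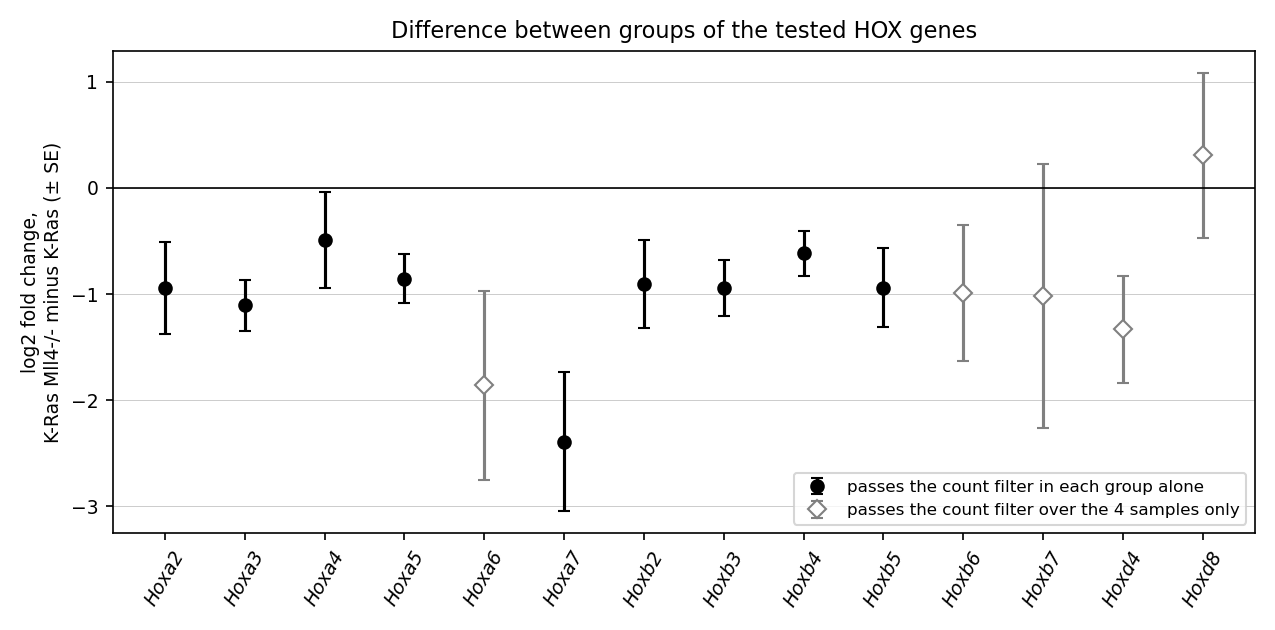
Log2 fold change, K-Ras Mll4-/- minus K-Ras, of 14 tested HOX genes in cluster order, with bars of 1 SE from the edgeR quasi-likelihood test. Filled circles are the 9 genes that pass the count filter in each group alone. Hoxa7 has the lowest value, -2.39, and Hoxd8 is the only one of those plotted above 0, at 0.31.

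Hoxa5, whose upstream sequence is the richest in CpG of the 4 printed above, was at 27.9 and 19.5 CPM in the K-Ras samples and at 12.8 and 13.4 CPM in the K-Ras Mll4-/- samples. The groups did not overlap, and the mean was 55.3% of that in K-Ras. On the log2 scale the difference was -0.85 (SE 0.23, edgeR quasi-likelihood adjusted p = 0.177), and -0.57 without K-Ras replicate 1.

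Hoxa3 was at 7.16 and 7.19 CPM in the K-Ras samples and at 3.35 and 3.32 CPM in the K-Ras Mll4-/- samples. The spread within each group was small, and both K-Ras Mll4-/- values lay well below. The log2 fold change was -1.10 (SE 0.24, edgeR quasi-likelihood adjusted p = 0.156), and lay between -1.12 and -1.10 with any sample omitted. Exons of the antisense genes Hoxaas2 and Hoxaas3 and of other genes overlap 27.1% of the Hoxa3 exons in GENCODE M21. The strand setting of the counting is not given in the sources used here. Reads shared with Hoxaas2 or Hoxaas3 may thus have been left out as ambiguous, and reads of genes not counted may be included.

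Hoxa7, which with Hoxa9 is a target of rearranged Mll1 in leukaemia, was at 5.85 and 2.52 CPM in the K-Ras samples and at 1.10 and 0.496 CPM in the K-Ras Mll4-/- samples. All 4 values differed widely, yet the groups did not overlap, and the mean was 19.1% of that in K-Ras. Its log2 fold change of -2.39 (SE 0.65, edgeR quasi-likelihood adjusted p = 0.178) lay between -3.06 and -1.66 with any sample omitted. Hoxaas3 overlaps 20.4% of its exons.

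Hoxa6, the neighbour of Hoxa7 on its 3' side, was at 1.54 and 0.969 CPM in the K-Ras samples and at 0.609 and 0.0931 CPM in the K-Ras Mll4-/- samples. The last value rests on 3 reads, and the log2 fold change was -1.86 (SE 0.89, edgeR quasi-likelihood adjusted p = 0.299). Hoxa9, beyond Hoxa7, had 0 and 2 reads in the K-Ras Mll4-/- samples, so in both groups Hoxa7 was the last HoxA gene with at least 3 reads in both samples. At 1 CPM the last was Hoxa7 in K-Ras and Hoxa5 in K-Ras Mll4-/-.

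Hoxa2 was at 8.503 and 4.04 CPM in the K-Ras samples and at 3.28 and 3.26 CPM in the K-Ras Mll4-/- samples. The groups did not overlap, but K-Ras replicate 2 was close to the K-Ras Mll4-/- values. Its log2 fold change of -0.94 (SE 0.43, edgeR quasi-likelihood adjusted p = 0.285) was -0.30 without K-Ras replicate 1. Hoxa4 was at 4.15 and 2.05 CPM in the K-Ras samples and at 2.36 and 2.05 CPM in the K-Ras Mll4-/- samples, so the groups overlapped. The log2 fold change was -0.49, and 0.11 without K-Ras replicate 1.

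In HoxB the 6 tested genes had negative log2 fold changes and none passed the quasi-likelihood test. Hoxb4 was at 9.06 and 9.10 CPM in the K-Ras samples and at 6.13 and 5.74 CPM in the K-Ras Mll4-/- samples. Neither group spread by much, and the log2 fold change was -0.61 (SE 0.21, edgeR quasi-likelihood adjusted p = 0.211), and between -0.66 and -0.57 with any sample omitted. Hoxb3 was at 8.18 and 6.83 CPM in the K-Ras samples and at 4.30 and 3.51 CPM in the K-Ras Mll4-/- samples, without overlap (log2 fold change -0.94, SE 0.27, edgeR quasi-likelihood adjusted p = 0.180). The antisense gene Hoxb3os, which is not among the counted genes, overlaps 52.9% of the Hoxb3 exons, so the Hoxb3 count may include its reads.

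Hoxb5 was at 1.41 and 1.55 CPM in the K-Ras samples and at 0.762 and 0.776 CPM in the K-Ras Mll4-/- samples. Replicates lay close together in each group, and the log2 fold change was -0.94 (SE 0.37, edgeR quasi-likelihood adjusted p = 0.242). Hoxb2 was at 3.20 and 1.88 CPM in the K-Ras samples and at 1.37 and 1.33 CPM in the K-Ras Mll4-/- samples, with a log2 fold change of -0.91 that became -0.47 without K-Ras replicate 1. For both genes the groups did not overlap.

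Towards the 5' end of HoxB the reads became few. Hoxb6 had 28 and 15 reads in the K-Ras samples and 11 and 8 in the K-Ras Mll4-/- samples, or 0.916 and 0.415 CPM against 0.419 and 0.248 CPM, which overlap. Its log2 fold change of -0.99 was -0.32 without K-Ras replicate 1. Hoxb7 had 32 and 5 reads in the K-Ras samples and 13 and 3 in the K-Ras Mll4-/- samples, and its log2 fold change of -1.02 was 1.03 without K-Ras replicate 1. Hoxb8 had 5 and 3 reads in K-Ras and 5 and 1 in K-Ras Mll4-/-, and was not tested. Replicate 1 had more Hoxb7 reads than replicate 2 in each group, and the groups overlapped.

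In HoxD, Hoxd4 was at 0.523 and 0.526 CPM in the K-Ras samples and at 0.229 and 0.186 CPM in the K-Ras Mll4-/- samples, where it had 6 reads each. The log2 fold change was -1.33 (SE 0.50, edgeR quasi-likelihood adjusted p = 0.229), and 52.3% of its exons overlap Hoxd3 or other transcripts. For Hoxd3, with at most 2 reads in a sample, the overlap was 62.9%. Reads shared by counted genes may have been left out as ambiguous, so both genes may be counted too low. Hoxd8 had 15 and 5 reads in the K-Ras Mll4-/- samples, on either side of the K-Ras counts of 10 and 9. Its log2 fold change of 0.31 was -0.87 without K-Ras Mll4-/- replicate 1. Hoxd9 ran the other way, with 1 read in each K-Ras sample and 7 and 4 reads in the K-Ras Mll4-/- samples, too few to be tested.

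Noncoding transcripts of HoxA had few reads. Of 20 genes on the list of noncoding and Evx genes inside the clusters, 17 were in the files, 10 of these had 0 reads in all samples, and 3 were tested. By the quasi-likelihood test and by DESeq2 0 were called, and by the likelihood ratio test 1, Hoxaas3. Hoxaas3 was at 1.18 and 1.11 CPM in the K-Ras samples and at 0.419 and 0.310 CPM in the K-Ras Mll4-/- samples (log2 fold change -1.64, SE 0.44, edgeR quasi-likelihood adjusted p = 0.177). Hotairm1, a noncoding RNA at the 3' end of HoxA, was at 1.90 and 1.49 CPM in the K-Ras samples and at 0.800 and 0.714 CPM in the K-Ras Mll4-/- samples (log2 fold change -1.16, SE 0.39, edgeR quasi-likelihood adjusted p = 0.204). Hoxaas2 was at 1.01 and 0.747 CPM in the K-Ras samples and at 0.305 and 0.621 CPM in the K-Ras Mll4-/- samples. Hotair in HoxC and Hottip at the 5' end of HoxA had 0 reads in all samples.

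Genes that flank the clusters had log2 fold changes of either sign. Of 21 neighbours, 20 were tested, 0 were called by the quasi-likelihood test, and 8 had a negative and 12 a positive log2 fold change, with a median of 0.08. Hibadh, a metabolic enzyme beyond the 5' end of HoxA, was at 40.7 and 48.9 CPM in the K-Ras samples and at 80.3 and 107 CPM in the K-Ras Mll4-/- samples (log2 fold change 1.06, edgeR quasi-likelihood adjusted p = 0.147). Nfe2l2, the NRF2 gene, which lies near HoxD, was at 179 and 231 CPM in the K-Ras samples and at 315 and 439 CPM in the K-Ras Mll4-/- samples (log2 fold change 0.88, edgeR quasi-likelihood adjusted p = 0.178). Both were called higher, and Ttll6, a neighbour of HoxB, was called lower, by DESeq2 as well as by the likelihood ratio test. Ttll6 was at 3.17 and 16.1 CPM in the K-Ras samples and at 0.914 and 1.15 CPM in the K-Ras Mll4-/- samples (log2 fold change -3.22, edgeR quasi-likelihood adjusted p = 0.178).

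Pbx, Meis and Pknox proteins bind DNA together with HOX proteins. Of the 9 genes of these families, all tested, 0 were called by the quasi-likelihood test, 7 had a negative log2 fold change, and the median was -0.82. Meis1 was at 41.7 and 40.4 CPM in the K-Ras samples and at 24.4 and 21.0 CPM in the K-Ras Mll4-/- samples (log2 fold change -0.86, SE 0.14, edgeR quasi-likelihood adjusted p = 0.147). Meis2 was at 37.2 and 26.5 CPM in the K-Ras samples and at 18.6 and 16.8 CPM in the K-Ras Mll4-/- samples (log2 fold change -0.85, SE 0.22, edgeR quasi-likelihood adjusted p = 0.170). The groups did not overlap for either gene. DESeq2 called Meis1, Meis2 and Pknox2 lower, and the likelihood ratio test Meis1, where 5.18% and 4.54% of all genes were called lower. Pknox2 was at 8.31 and 24.4 CPM in the K-Ras samples and at 6.25 and 4.65 CPM in the K-Ras Mll4-/- samples. Pbx3 had a log2 fold change of 0.02.

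Chromatin regulators of the clusters showed no common direction. Of 14 activators, 0 were called by the quasi-likelihood test, DESeq2 or the likelihood ratio test, and 7 had a negative log2 fold change, with a median log2 fold change of 0.01. Kmt2a was at 188 and 223 CPM in the K-Ras samples and at 195 and 207 CPM in the K-Ras Mll4-/- samples, and Kmt2b had a log2 fold change of -0.16. Dot1l, the H3K79 methyltransferase, and Kdm6b, an H3K27 demethylase, had the smallest p-values of the list, with log2 fold changes of -0.42 and -0.52 (edgeR quasi-likelihood adjusted p = 0.177 and 0.211). Of 21 Polycomb genes, 0 were called by the quasi-likelihood test, 1 by each of DESeq2 and the likelihood ratio fit (Ezh2, higher), and 12 had a negative log2 fold change, with a median of -0.05. Ezh2, the H3K27 methyltransferase that silences HOX genes, was at 17.8 and 14.9 CPM in the K-Ras samples and at 26.2 and 33.9 CPM in the K-Ras Mll4-/- samples (log2 fold change 0.88, SE 0.20, edgeR quasi-likelihood adjusted p = 0.163). Its partner Eed had a log2 fold change of 0.37 (edgeR quasi-likelihood adjusted p = 0.208).

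Among 21 genes of upstream signals, the Cdx factors and the retinoic acid pathway, 14 were tested and 0 called by the quasi-likelihood test, with 9 negative and a median of -0.27. Aldh1a3, which makes retinoic acid, was at 23.8 and 5.51 CPM in the K-Ras samples and at 175 and 258 CPM in the K-Ras Mll4-/- samples (log2 fold change 3.89, SE 0.78, edgeR quasi-likelihood adjusted p = 0.153). Rxrg, a retinoid receptor, had 3 reads in each K-Ras sample and 9 and 39 in the K-Ras Mll4-/- samples (log2 fold change 3.07, edgeR quasi-likelihood adjusted p = 0.181). Rarb, a retinoic acid receptor that is itself induced by retinoic acid, was at 4.81 and 8.27 CPM in the K-Ras samples and at 4.08 and 2.70 CPM in the K-Ras Mll4-/- samples. DESeq2 called Aldh1a3 higher, and the likelihood ratio test Aldh1a3 and Rxrg. Cdx1 and Cdx4 had 0 reads in every sample. Cdx2 had 0 reads in each K-Ras sample and 1 and 11 in the K-Ras Mll4-/- samples, too few to be tested.

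Other regulators of lung development had log2 fold changes of either sign. Of 18 tested, 0 were called by the quasi-likelihood test, 12 were negative, and the median log2 fold change was -0.52. Sox9, a factor of distal lung progenitors, was at 4.02 and 2.96 CPM in the K-Ras samples and at 40.9 and 46.1 CPM in the K-Ras Mll4-/- samples (log2 fold change 3.64, SE 0.23, edgeR quasi-likelihood adjusted p = 0.0603). Tbx2, a factor of lung mesenchyme, was at 62.3 and 73.0 CPM in the K-Ras samples and at 35.5 and 33.8 CPM in the K-Ras Mll4-/- samples (log2 fold change -0.97, SE 0.14, edgeR quasi-likelihood adjusted p = 0.135). With either DESeq2 or the likelihood ratio test, 6 of the 18 were called, Tbx2, Tbx3, Tbx4 and Tbx5 lower and Gata6 and Sox9 higher. Over all genes these tests called 10.4% and 9.39% in either direction. With limma-voom 0 genes of these lists were called.

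Summed levels of fibroblast, endothelial and smooth muscle markers were lower alongside the HOX sum. The quasi-likelihood test called 0 of these markers. DESeq2 called 7 of 10 endothelial markers, 1 of 10 fibroblast markers (Pdgfra) and 0 of 10 smooth muscle and pericyte markers, all lower, and the likelihood ratio test 4, 1 and 0. Over all genes DESeq2 called 5.18% lower and 10.4% in either direction, and the likelihood ratio test 4.54% and 9.39%. In bulk samples, fewer cells of a type and less RNA per cell cannot be told apart. The summed CPM of 10 fibroblast markers was 2521 and 1171 in the K-Ras samples and 871 and 889 in the K-Ras Mll4-/- samples, with 8 of 10 markers lower without overlap. Among all tested genes 28.5% were lower and 29.9% higher without overlap. The 10 endothelial markers summed to 5612 and 5610 CPM in K-Ras and to 3983 and 3063 CPM in K-Ras Mll4-/-, also with 8 of 10 lower without overlap. The 10 smooth muscle and pericyte markers summed to 334 and 259 CPM in K-Ras and to 253 and 219 CPM in K-Ras Mll4-/-. This list was mixed, with 5 of 10 markers lower without overlap and 1, Cspg4, higher without overlap. Pdgfra, a receptor of fibroblasts, was at 196 and 153 CPM in K-Ras and at 77.7 and 74.1 CPM in K-Ras Mll4-/-. Pecam1, an endothelial adhesion molecule, was at 1359.9 and 1332 CPM in K-Ras and at 944 and 744 CPM in K-Ras Mll4-/-. None of these markers was at 0. The 10 epithelial markers summed to 1156 and 1925 CPM in K-Ras and to 3502 and 3815 CPM in K-Ras Mll4-/-, with 8 of 10 higher without overlap, and DESeq2 called 8 higher and 1 lower. K-Ras replicate 1 was the highest sample for the HOX sum and for the fibroblast sum alike. Most of the fibroblast sum in that sample came from Col1a1, Col1a2 and Col3a1, at 491, 627 and 1025 CPM. Fbln1 and Lum were the fibroblast markers that were not highest there.

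**Figure D4:**
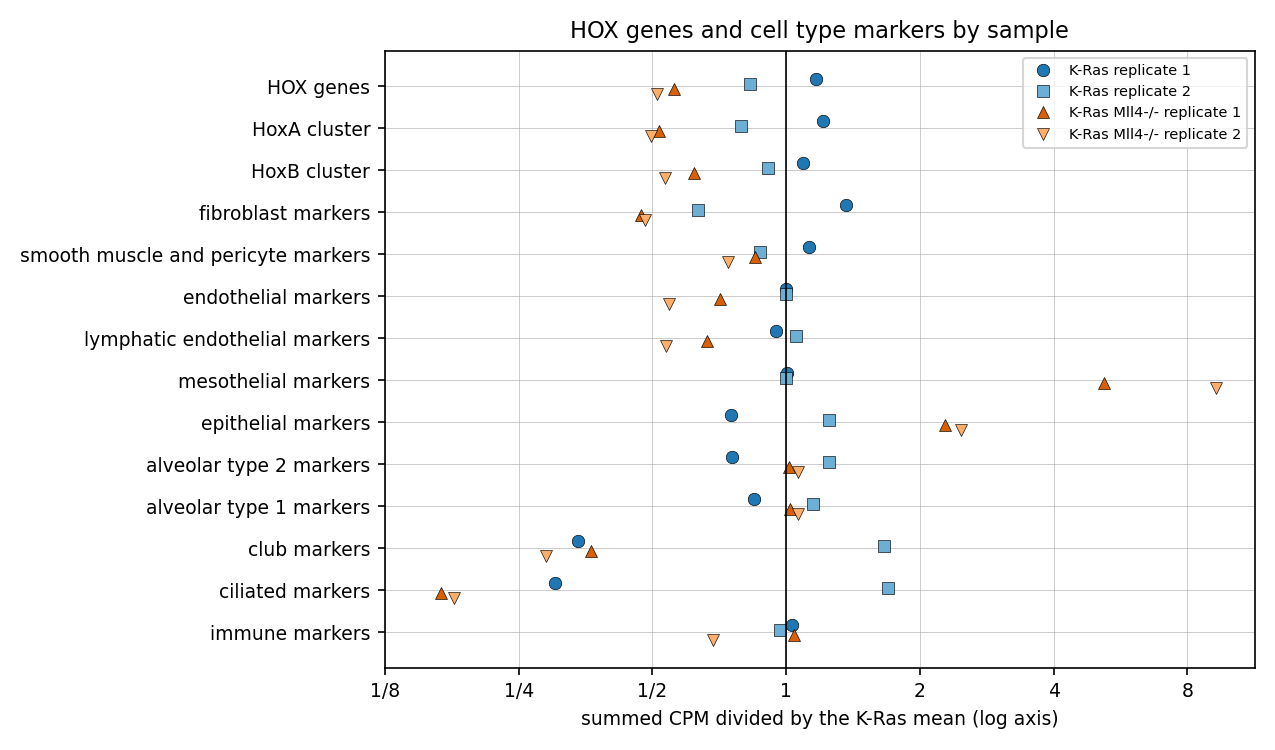
Summed CPM of the HOX genes and of cell type marker lists in each sample, divided by the K-Ras mean (log axis, 1 point per sample). The HOX, fibroblast and endothelial sums of both K-Ras Mll4-/- samples lie below both K-Ras samples, and the epithelial and mesothelial sums lie above (the latter through Msln).

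The HOX difference depended on the markers it was set against. Per 1000 CPM of fibroblast markers, the HOX sum was 32.1 and 49.1 CPM in the K-Ras samples and 44.5 and 39.9 CPM in the K-Ras Mll4-/- samples, so the groups overlapped. Divided by the geometric mean of the fibroblast markers it was 1.36 and 1.36 in K-Ras and 1.34 and 1.08 in K-Ras Mll4-/-, without overlap. Per 1000 CPM of endothelial markers it was 14.4 and 10.3 in K-Ras and 9.72 and 11.6 in K-Ras Mll4-/-, which overlapped too. On the fibroblast scale 1 of the 15 tested HOX genes, Hoxa7, remained lower without overlap (1.16% of all tested genes), at 2.32 and 2.15 CPM in K-Ras and 1.27 and 0.558 CPM in K-Ras Mll4-/- per 1000 CPM of fibroblast markers. On the same scale 3 of the 15 were higher without overlap. The fibroblast sum in K-Ras Mll4-/- was 47.7% of the K-Ras mean, so dividing by it raises every gene there. The share of all tested genes higher on this scale was not computed. The count of 3 is therefore no result about the HOX genes. With the geometric mean of the fibroblast markers in place of their sum 0 were higher. Lower on that scale were 5, Hoxa3, Hoxa5, Hoxa6, Hoxa7 and Hoxd4 (3.36%), of which 3 reached the filter level in each group by itself. On the endothelial scale 5 were lower, Hoxa3, Hoxa6, Hoxa7, Hoxb3 and Hoxd4 (4.97%), and the same 5 with the geometric mean (5.36%), again with 3 that reached the filter level in each group. Per 1000 CPM of smooth muscle and pericyte markers the HOX sum was 242 and 222 CPM in K-Ras and 153 and 162 CPM in K-Ras Mll4-/-, without overlap. On that scale 10 of the 15 tested HOX genes were lower without overlap (11% of all tested genes), and 10 with the geometric mean (13.9%). Of the 9 that reached the filter level in each group, 8 were among them on either scale. Per 1000 CPM of epithelial markers, whose sum was higher in K-Ras Mll4-/-, the difference was larger. There the HOX sum was 70.1 and 29.9 CPM in K-Ras and 11.1 and 9.3 CPM in K-Ras Mll4-/-, without overlap. These scales were chosen after seeing the data.

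Other cell types that the samples could hold were examined in the same way. The 6 mesothelial markers summed to 24.4 and 24.3 CPM in K-Ras and to 126 and 226 CPM in K-Ras Mll4-/-. Msln made up this difference, with 421 and 615 reads in K-Ras and 3159 and 7134 in K-Ras Mll4-/-, while the other 3 tested markers had negative log2 fold changes. The 6 lymphatic endothelial markers summed to 350 and 387 CPM in K-Ras and to 244 and 198 CPM in K-Ras Mll4-/-, without overlap and with Ccl21a at 0 reads in all samples. The ciliated sum, also lower without overlap, was 171 and 959 CPM in K-Ras and 94.6 and 101 CPM in K-Ras Mll4-/-, and the club, immune and alveolar sums overlapped between the groups. The part of these cell type differences in the HOX levels was not tested.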

How the data were processed

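Reads were assigned to genes by the authors, who deposited raw counts per gene symbol for each sample in the layout that HTSeq writes. Per the submitters' processing notes, CASAVA 1.4, STAR and HTSeq were used, with the build mm9. The annotation, filters and strand setting are not given in the sources used here. The 5 closing tally lines were left out of library sizes. Reads aligned to several places, from 23060509 to 36065092 per sample, had not been assigned to genes. The same held for reads tallied as ambiguous between genes, from 217188 to 270339 per sample.

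All 24391 genes were fitted together and 16001 passed the default edgeR filter, which here required 0.323 CPM in 2 samples. Counts were scaled by TMM and tested with the robust quasi-likelihood test of edgeR 4.0.16 in R 4.3.3, with Benjamini-Hochberg adjustment over all tested genes and calls at an adjusted p under 0.05. The standard error is the log2 fold change divided by the square root of the F statistic. Alternatives used DESeq2 1.42.0, limma 3.58.1 and smooth offsets from mgcv 1.9.3. Lengths, GC content and exon overlaps came from GENCODE M21 (GRCm38), matched by symbol for 23993 genes and all 39 HOX genes. The counted build differs, so only RefSeq sequence windows carry coordinates.

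Every HOX gene was accounted for, and each tested member was named apart from 1 that is not reported here and enters only the counts and sums. From each pathway list the 2 genes with the smallest p-value were named, with Kmt2d and Kmt2b. Kmt2a, Pbx3, Pknox2, Hoxaas2, Ttll6, Rarb, Tbx3, Tbx4, Tbx5, Gata6 and genes at 0 reads were named after their values were seen. So were Ptprc, Cdx2, Cspg4, Fbln1, Lum and the collagen genes. The members and lists were chosen with earlier results of these data known. The fit was tested on simulated data.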

Additional observations from a re-analysis of the deposited data

How the results depend on the processing

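The 14 tested HOX genes reported by name were recomputed under 16 alternatives each, 224 values in all, of which 217 kept their direction and side of the threshold. DESeq2 gave 4 of the genes no adjusted p, and these were compared by direction. Hoxa3 and Hoxa7 passed the threshold with DESeq2 (adjusted p = 0.0213 and 0.0148) and with the likelihood ratio test (adjusted p = 0.0434 and 0.0152), which gave 2 called HOX genes each in place of 0. Of these alternatives, only leaving out a sample reversed a direction. Over the samples left out, Hoxa4 lay between -0.93 and 0.11, Hoxb7 between -2.60 and 1.03, and Hoxd8 between -0.87 and 0.98. The reversals came without K-Ras replicate 1 for Hoxa4 and Hoxb7, and without K-Ras Mll4-/- replicate 1 for Hoxd8. Leaving out single samples gave 0 called HOX genes each time. The replicate number does not pair the samples, since the labels do not say what a number shares. With the replicate block 0 HOX genes were called, and 217 of all genes in place of 6. Deviations of same-numbered samples correlated at 0.21. All genes called numbered 44 without a count filter, 1601 with DESeq2, 1503 with the likelihood ratio test, 0 with limma-voom, and 412 with the replicate block and GC and length offsets. With a sample left out they lay between 0 and 528, 528 without K-Ras replicate 1 and 0 without each of the others. The cause of these shifts was not tested. The 9 HOX genes on in K-Ras ranged from 7 to 11 and the 7 in K-Ras Mll4-/- from 6 to 8. The 10 HOX genes lower without overlap were 1 and 5 per fibroblast marker level (sum and geometric mean) and 5 and 5 per endothelial marker level, and 10 and 10 per smooth muscle and pericyte marker level, scales added after seeing the data. Low counts limit Hoxa6, Hoxb6, Hoxb7, Hoxd4 and Hoxd8.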
